A study of Glycine max with 2 samples.

Results

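The peaks described here are the intervals on soybean chromosome 13 where chromatin precipitated with an antibody against AGL62-like exceeded total chromatin (input). They were chosen by the sequence name alone, as every peak listed on chromosome 13, and number 1282 of the 17179 peaks of the list (7.46%). The list was made by chromatin immunoprecipitation and sequencing (ChIP-seq) of Williams 82 soybean, from entire seeds with globular embryos that measured 1.0 to 1.5 mm. The groups were 1 ChIP library, precipitated with a rabbit anti-peptide antibody, and 1 input library of the same kind of seeds, both labelled replicate 1. No transgene or treatment is named for either group. Embryo, endosperm and seed coat were not separated, so the list cannot say in which of them a site was bound.

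AGL62-like is named after Arabidopsis AGL62, a MADS-domain transcription factor known for holding the endosperm in its syncytial phase. MADS-domain proteins bind DNA as dimers, commonly at short AT-rich elements called CArG boxes. Soybean chromosomes are known to have gene-rich arms on either side of a large, repeat-rich region around the centromere. Chromosome 13 is known as the chromosome that carries the nucleolus organizer, the tandem array of ribosomal RNA genes, and where that array lies in the coordinates used here was not analysed.

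Because the ChIP group is a single library, no spread between replicates can be given and no test between conditions is possible. Chromosomes and windows are therefore compared by their values and their order, with no p-value. Intervals are 95% intervals for counting error only, exact Poisson for counts and Wilson for shares. They treat summits as independent, although summits cluster, and so are too narrow. The summit is the base of a peak with the most fragments, and positions along the chromosome are percentages of its span, from base 1 to the end of the last peak at 45608536.

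Chromosome 13 made up 4.82% of the summed span of the 20 chromosomes and held 7.50% of their peaks. Its density was 28.1 summits per Mb, 1.60 times the 17.5 per Mb of the other 19 pooled. Peaks covered 1.28% of its span, against 0.545% to 1.18% on the other chromosomes. The first 25% of the span held 38 summits (3.33 per Mb, interval 2.36 to 4.57), the middle 50% held 665 (29.2 per Mb, interval 27.0 to 31.5) and the last 25% held 579 (50.8 per Mb, interval 46.7 to 55.1). Density thus rose over the 3 parts in turn, but not steadily. The stretch from 21 to 22 Mb held 52 summits and that from 30 to 31 Mb held 16. The 3 intervals did not overlap. They are too narrow, and the parts were compared with earlier results of these data known, so this is no test. The density of the last 25% was 15.2 times that of the first 25%.

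The other 19 chromosomes together were dense at both ends and thin between them, with 29.4 summits per Mb in their first 25%, 5.99 in their middle 50% and 28.8 in their last 25%. Chromosome 13 was therefore 8.83 times less dense at its start, 4.87 times denser in its middle and 1.77 times denser at its end. These ratios are against the 19 pooled, and single chromosomes differed. The first 25% of chromosome 13 held 2.96% of its summits, against 17.05% (chromosome 20) to 66.0% (chromosome 15) on the others. Its middle 50% held 51.9% of its summits, while on the other chromosomes that share ran from 9.23% (chromosome 4) to 28.1% (chromosome 8). The share in its last 25%, 45.2%, was inside the range of the other chromosomes and eighth from the top. At the level of the whole chromosome, the start and the middle set it outside the range of the others, and the end did not by this measure. By count its end did lie outside, since its last 10 Mb held 490 summits, against 106 to 454 on the others.

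**Figure D1:**
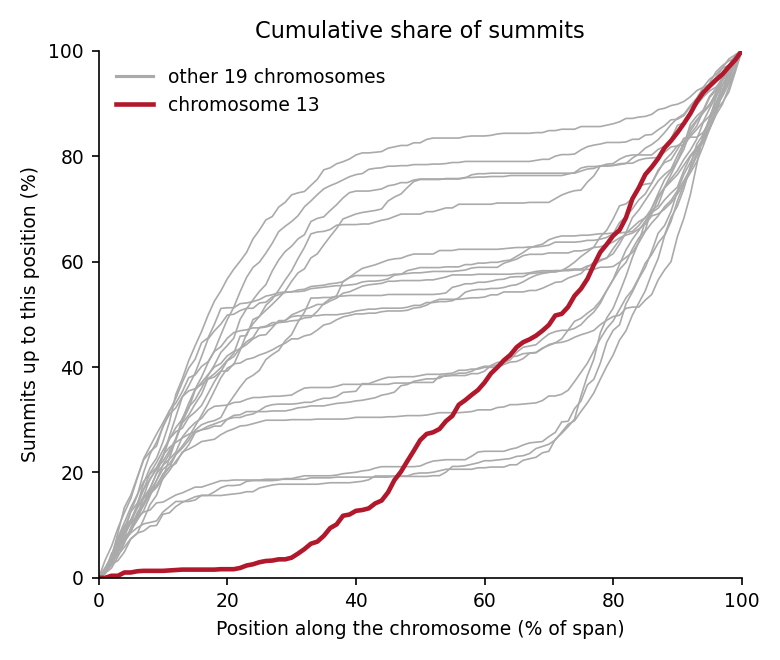
Share of a chromosome's summits (y, %) found up to each position along its span (x, % of span), for chromosome 13 (red) and each of the other 19 chromosomes (grey). The red curve stays near 0 at the start, reaching 1.64% at 20 on the x axis and 3.82% at 30, and then climbs by 51.9% of its summits between 25 and 75, where the grey curves climb by 9.23% to 28.1%.

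In 1 Mb windows, 46 of which cover the chromosome, the counts changed in steps along it. The first 3 windows held 5, 8 and 4 summits. The next 10 windows, from 3 to 13 Mb, held 28 summits in all, between 0 and 9 each. From 13 to 20 Mb the 7 windows held between 10 and 35 summits. From 20 to 33 Mb there were 459 summits (35.3 per Mb), and from 33 Mb to the end 635 (50.4 per Mb). The stretch from 20 to 33 Mb was uneven, with 385 summits in its first 10 windows and 74 in its last 3. The borders of these stretches were set after the counts were seen, so their differences are a description.

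The first 3 Mb, at 5.67 summits per Mb (interval 3.30 to 9.07), were denser than the next 10 Mb, at 2.80 (1.86 to 4.05), but the intervals overlap. Whether there is a small rise at the very start of the chromosome is not settled here. The border was set after the counts were seen, and summits cluster, so the overlap or separation of these intervals cannot decide it. The 7 windows that follow held 20.4 per Mb (17.2 to 24.1), outside both intervals. Because the borders were drawn from these same counts, that separation is a description and no test of a step.

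**Figure D2:**
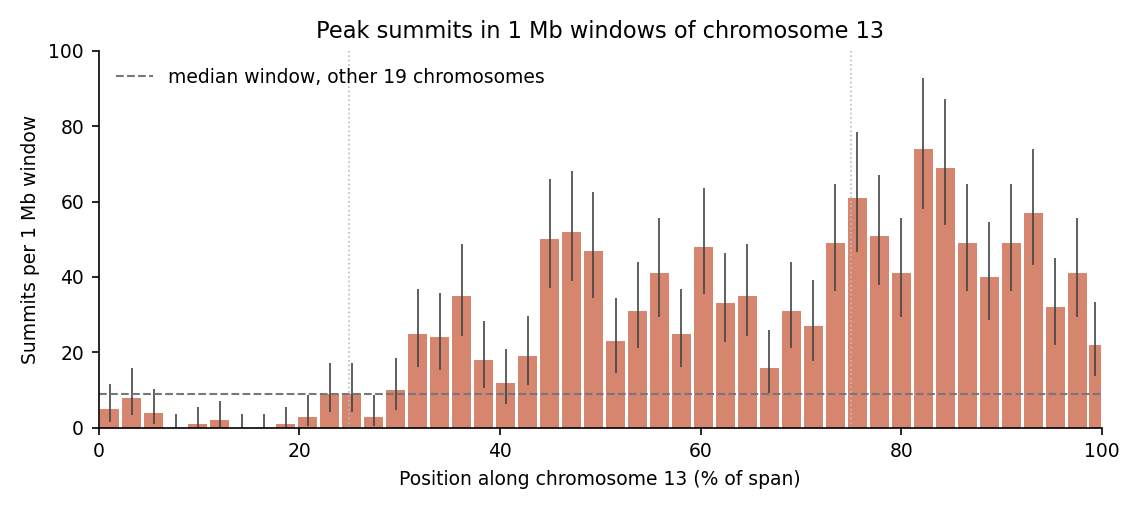
Number of peak summits (y) in each 1 Mb window of chromosome 13, by position (x, % of span), with 95% exact Poisson intervals as vertical lines. Dotted lines mark 25% and 75% of the span, the dashed line is the median window of the other 19 chromosomes (9 summits), and the last bar is a window shorter than 1 Mb. Bars stay at 9 or fewer over the first 13 windows and reach 74 in the window centred at 82.2%.

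Windows without a summit numbered 3, those from 3 to 4 Mb, from 6 to 7 Mb and from 7 to 8 Mb. A count of 0 in a window allows up to 3.69 summits at the upper end of its interval. Empty windows were 6.52% of the windows of chromosome 13 and 10.8% of those of the other 19 (98 of 909), so chromosome 13 did not have more empty windows. All 3 on chromosome 13 lay before 8 Mb. Where the empty windows of the other chromosomes lay was not compared. The window with the most summits, from 37 to 38 Mb, held 74 (interval 58.1 to 92.9), followed by 69 from 38 to 39 Mb, 61 from 34 to 35 Mb, 57 from 42 to 43 Mb and 52 from 21 to 22 Mb. The densest of these was among the highest of the genome but not beyond it, since 2 windows on other chromosomes held more, up to 82. The fifth lay near the centre of chromosome 13, whose middle 50% averaged 29.2 summits per Mb, against 5.99 on the other chromosomes.

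Filled windows were more frequent on chromosome 13 than elsewhere. Windows with 20 or more summits were 28 of 46 (60.9%), against 37.1% of the windows of the other 19 chromosomes and at most 54.2% on any of them. Windows with 40 or more were 16 (34.8%), against 15.2%. Among windows with 20 or more summits the median was 41 on chromosome 13 and 37 elsewhere. The median over all windows was 26, a value shared with chromosome 11 and above the other 18 chromosomes. Filled windows also formed an unbroken run, with each of the 33 windows from 13 Mb to the end holding 10 or more summits. The longest such run on any other chromosome was 19 windows (chromosome 8), and the median over the other 19 was 14. With 20 or more summits as the threshold the run on chromosome 13 was 15 windows and no longer the longest, since the longest elsewhere was 18.

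Placing a 10 Mb stretch where it held the fewest summits put it at the very start of chromosome 13, from 0 to 10 Mb, with 24 summits. On the other 19 chromosomes the sparsest 10 Mb was centred between 31.8% and 66.9% of the span and held 3 to 35 summits, with a median of 12. The sparse stretch of chromosome 13 was thus no emptier than those of the others, and 16 of the other 19 had fewer summits in theirs. Its centre, at 10.96% of the span, was outside their range. Outside the sparsest 10 Mb, chromosome 13 had 35.3 summits per Mb, against 14.6 (chromosome 18) to 33.3 (chromosome 11) on the others.

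Ordering the 40 chromosome ends by the summits in their outer 10 Mb put both ends of chromosome 13 at the extremes. Its start was the lowest, with 24 summits (interval 15.4 to 35.7), below the end of chromosome 15 with 106 (86.8 to 128) and the start of chromosome 20 with 112. Its end was the second highest, with 490 (448 to 535), below the start of chromosome 17 with 529 (485 to 576) and next to the start of chromosome 6 with 481. The intervals of the lowest and the next did not overlap, while those of the highest ends did. The outer 10 Mb were chosen after their values were seen, and summits cluster, so these intervals settle neither order. The first summit of chromosome 13 lay at 504487, farther in than on any other chromosome, where first summits lay between 28576 and 270187.

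**Figure D3:**
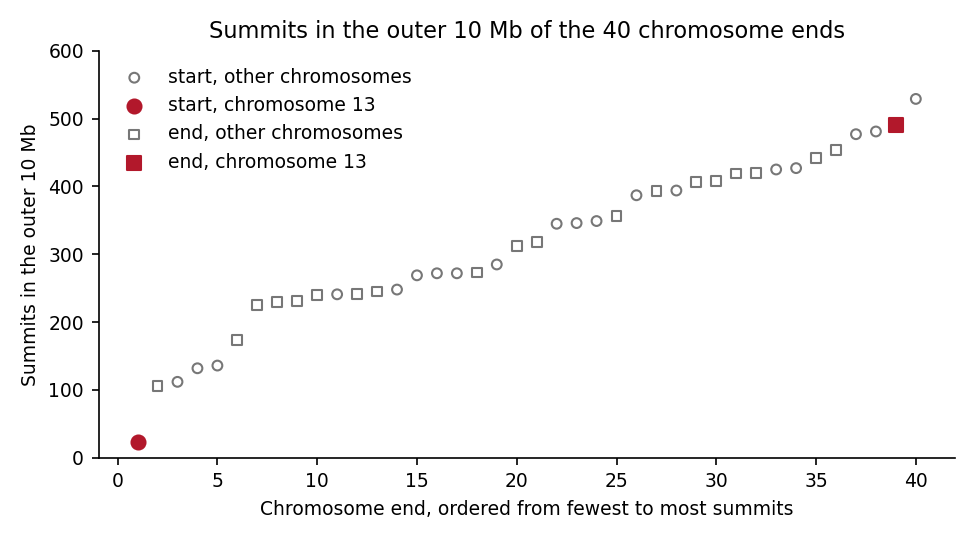
Summits in the outer 10 Mb (y) of each of the 40 chromosome ends, ordered from the fewest to the most (x), with circles for starts and squares for ends of the sequence. The filled red circle, the start of chromosome 13, is the lowest at 24, and the filled red square, its end, is the second highest at 490.

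The longest stretches without a summit all lay in the sparse start. The longest ran from 5670802 to 8616407 (2.95 Mb), followed by 2768369 to 4821411 (2.05 Mb), 8616407 to 9759018 (1.14 Mb), 12532570 to 13555776 (1.02 Mb) and 1707039 to 2478042 (0.771 Mb). The first and the third share the lone summit at 8616407. Stretches over 500 kb between neighbouring summits numbered 7 and all began in the first 30% of the span, together 19.7% of it. The part before the first summit, at 504487, was not counted. On the other 19 chromosomes such stretches made up 36.2% of the span. Beyond the first 30% of chromosome 13 the longest stretch was 410 kb, between 18203336 and 18613232. At 2.95 Mb, the longest stretch was close to the median of the longest stretches of the other chromosomes (2.89 Mb), and 9 of the other 19 chromosomes had a longer one. That order depends on the weaker peaks. With only peaks of a −log10 q of 10 or more the longest stretch was 7.20 Mb, and with only folds at or above the list's median 8.05 Mb, each the second longest of the 20. In the full list it was centred at 15.7% of the span, against 31.2% to 68.1% on the other chromosomes.

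From 3 to 9 Mb there were 4 peaks, and each was alone. The peak from 4821281 to 4821762 had a fold enrichment over input of 4.52 from 16 fragments at its summit. The peak from 5158454 to 5158776 had a fold of 5.25 from 21 fragments, and that from 5670693 to 5670979 a fold of 4.08 from 23. The peak from 8616246 to 8616595 had a fold of 4.79 from 17 fragments, and its nearest neighbour was 1142611 bp away, the largest such distance on the chromosome. All 4 had folds below the median of the list, 5.44, and the counting range of the strongest was 3.34 to 7.90.

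Fold enrichment is the peak caller's ratio of ChIP signal to local background, and its counting range here lets the fragment number at the summit vary with the input held fixed. The median fold of the chromosome 13 peaks was 5.44, with the middle 50% between 4.53 and 7.03, and the other 19 chromosomes together had the same median of 5.44. A fold of 10 or more was reached by 103 peaks of chromosome 13 (8.03%, interval 6.67 to 9.65), against 7.22% of all peaks of the list and 7.15% of those on the other 19 chromosomes, both inside that interval. Among the 100 strongest peaks of the list 6 were on chromosome 13, and among the 500 strongest 42 (8.40%). Chromosome 13 thus had more peaks per Mb, while their median strength was that of the peaks elsewhere.

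Along the chromosome the median fold was 5.29 in the first 25%, 5.43 in the middle and 5.51 in the last 25%. Of the 103 peaks with a fold of 10 or more, 53 were in the middle and 49 in the last 25%, and 1 in the first 25%. That 1 of 38 (2.63%, interval 0.466 to 13.5) cannot be told apart from the background share of 7.22%. Across the 37 windows with at least 5 summits, the number of summits and the median fold were nearly unrelated (Spearman's rho = 0.087), with window medians from 4.75 to 6.34. This is a description of windows of 1 library that share their depth.

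**Figure D4:**
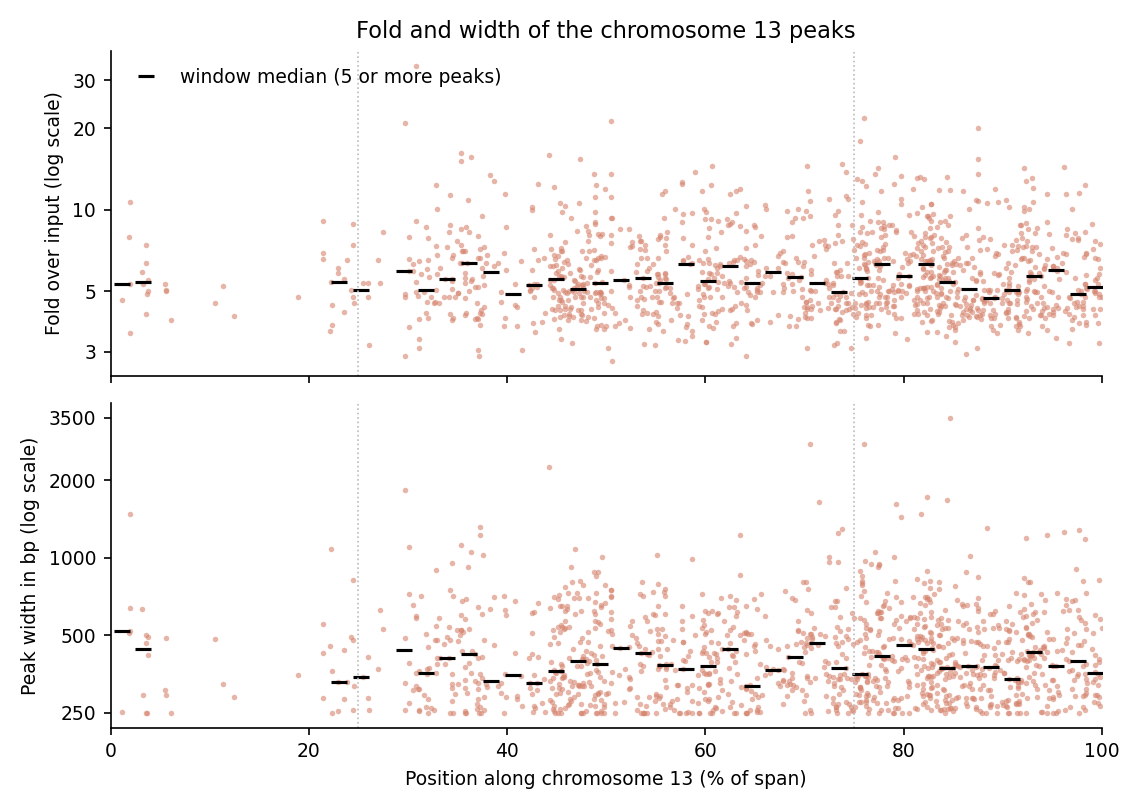
Fold over input (upper panel) and width in bp (lower panel) of each chromosome 13 peak, both on a log scale, by position (x, % of span), with black dashes for the medians of windows with 5 or more peaks and dotted lines at 25% and 75%. The points thin out on the left, but the dashes stay level, between 4.75 and 6.34 for fold and between 317 and 520 bp for width.

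The peak with the highest fold of the chromosome, and the fifth of the whole list, spanned 14063070 to 14063663 and reached 34.0-fold over input on 149 fragments (counting range 28.8 to 39.9). It lay at 30.8% of the span, about where the dense part begins. It was 1 of 4 peaks whose summits followed each other within 2 kb. The other members had folds of 5.44 at 14061407, 9.08 at 14064329 and 4.97 at 14065600. The strongest peak was therefore flanked on both sides by weak to moderate ones.

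The next 4 by fold were spread over the middle and the end. Enrichment was 21.7-fold (counting range 17.6 to 26.5) at the peak spanning 34675205 to 34677974 and 21.2-fold (16.9 to 26.2) at that spanning 23039954 to 23040706. It was 20.8-fold (16.6 to 25.8) between 13565001 and 13566841, and 19.9-fold (16.6 to 23.8) between 39895254 and 39895951. These ranges overlap each other and all lie below that of the first. The summit of the fourth, at 13566392, followed shortly after the empty stretch that ended at 13555776. The remaining 5 of the first 10 had folds between 15.6 and 17.9 and began at 34485499, 16119618, 20155510, 16589060 and 36096683. None of the 10 lay in the first 25% of the span, 6 were in the middle 50% and 4 in the last 25%. Of all peaks of the chromosome, 2.96%, 51.9% and 45.2% lay in these parts, so the 10 were placed much as the peaks are.

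Within the first 25%, the strongest peak spanned 887791 to 889271 and was 1481 bp wide, and its 39 fragments made it 10.6-fold (counting range 7.64 to 14.4). Next came the peak from 9758801 to 9759351 with a fold of 9.11 and the peak from 11132428 to 11133250 with 8.88. The peaks from 835535 to 836042 and from 1633008 to 1633473 had folds of 7.93 and 7.44. The first peak of the chromosome, from 504378 to 504629, had a fold of 4.65 from 17 fragments. These 5 strongest peaks of the first 25% lay in the first 2 Mb and after 9 Mb. The stretch from 3 to 9 Mb held only 4 of the 38 peaks and was chosen after its values were seen. A difference in strength along the start therefore cannot be read from this.

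Peak width had a median of 392 bp on chromosome 13 (middle 50% from 307 to 529), against 387 bp on the other 19, whose medians ran from 372 to 402. By position the medians were 390 bp in the first 25%, 386 bp in the middle and 399 bp in the last 25%. Peaks of 1 kb or more numbered 35 (2.73%, interval 1.97 to 3.77), against 3.17% elsewhere, and 2 of these were among the 38 peaks of the first 25%. At the shortest width, 249 bp, were 4.84% of the peaks, against 5.30% elsewhere. The widest peaks ran from 38623979 to 38627482 (3504 bp, fold 11.8), from 32176894 to 32179677 (2784 bp, fold 10.8) and from 34675205 to 34677974 (2770 bp, fold 21.7). Width, like fold, did not set chromosome 13 apart.

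Consecutive summits were a median of 12.6 kb apart on chromosome 13 and 14.6 kb on the other 19. The 95th percentile was 117 kb against 202 kb, so long gaps were fewer. A neighbour within 2 kb was found for 402 summits (31.4%, interval 28.9 to 33.9), against 30.2% elsewhere and 24.7% to 34.6% on single chromosomes. By position the shares were 31.6% in the first 25% (12 of 38, interval 19.1 to 47.5), 29.6% in the middle and 33.3% in the last 25%. Close pairs were thus about as common in the sparse start as in the dense end, at the width these intervals allow.

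At longer distances the start and the end parted. The median distance to the nearest summit was 22.6 kb in the first 25%, 5.55 kb in the middle and 3.77 kb in the last 25%. No neighbour within 100 kb was found for 7 of the 38 summits of the first 25% (18.4%, interval 9.22 to 33.4), for 9 of 665 in the middle (1.35%) and for 0 of 579 in the last 25%, which allows a share of up to 0.518% by 3 counts of the total and 0.659% by the Wilson upper bound. In the middle 50% of the other chromosomes that share was 14.4%, inside the interval of the start of chromosome 13. In the outer 25% of the other chromosomes it was 1.52% at the start and 1.43% at the end.

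**Figure D5:**
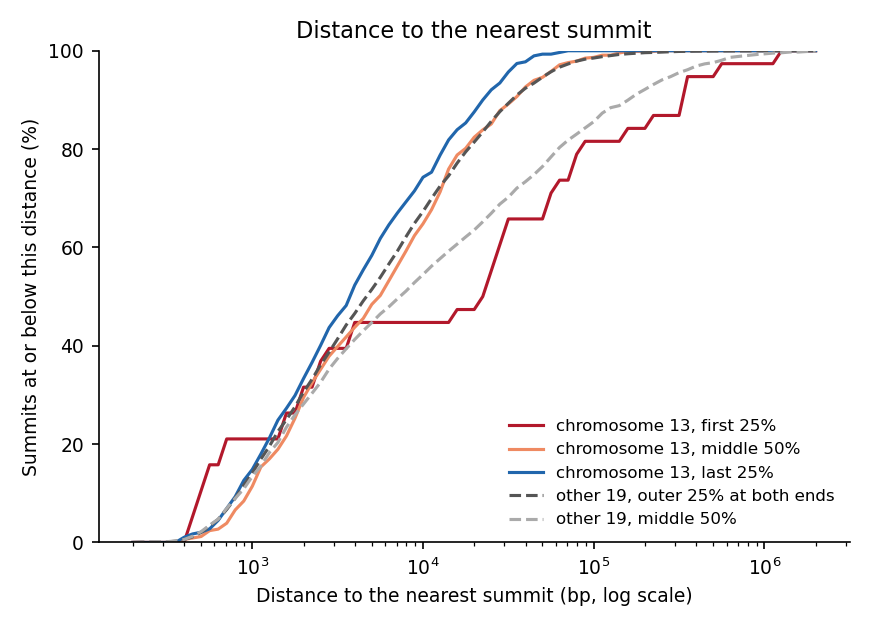
Share of summits (y, %) whose nearest neighbour lies at or below a distance (x, bp, log scale), for the parts of chromosome 13 (solid lines) and of the other 19 chromosomes (dashed lines). The lines meet near 2 kb, and beyond it the first 25% of chromosome 13 (38 summits) falls to the right, on the side of the middle of the other chromosomes, while its middle 50% follows their outer parts.

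Linking summits within 2 kb gave 1062 groups on chromosome 13, of which 880 were single peaks, 149 pairs, 28 groups of 3 and 5 groups of 4. Groups of 5 or more did not occur, and on the other chromosomes they were only 20 of 13126 groups. At so small a share, their absence among 1062 groups does not set chromosome 13 apart. Summits in groups of 3 or more were 8.11% of those on chromosome 13 and 5.96% to 12.5% of those on the others. Besides the group around the strongest peak, the groups of 4 ran from 33357409 to 33361164, from 37767339 to 37771021, from 42033624 to 42037799 and from 45292724 to 45296393, with highest folds of 5.89, 10.5, 14.3 and 7.66. Each spanned less than 5 kb and 4 of the 5 lay at 73.1% of the span or beyond. Of all summits of the chromosome, 51.4% lay up to 73% of the span and the rest beyond it. With 5 groups, no difference in placing from the summits as a whole can be read. By windows of 100 kb, the most summits were 13, from 35300001 to 35400000 and from 37700001 to 37800000, and 12 from 37300001 to 37400000. On the other chromosomes 9 such windows held more than 13. The summits of the dense part were thus spread over megabases.

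The input level at the summits also differed along the chromosome. The level, recovered from each peak's fold and p-value, cannot fall below a genome-wide floor of 2.76 fragments. In the first 25% of chromosome 13, 15 of 38 peaks were at the floor (39.5%, interval 25.6 to 55.3), against 8.12% in its middle and 6.56% in its last 25%. On the other chromosomes the share was 8.97% in the first 25%, 15.6% in the middle and 9.49% in the last 25%. Like was set beside like by windows with 1 to 9 summits, where 16 of 45 peaks of chromosome 13 (35.6%, interval 23.2 to 50.2) and 21.0% of 1461 peaks elsewhere (upper bound 23.2) were at the floor. In such windows the share was higher on chromosome 13, on 45 peaks, with bounds that met at 23.2 to 3 digits. A low input level thus moved with sparse windows, on chromosome 13 and elsewhere. Its part in the low number of peaks was not tested, and the input library is seen here only at peaks.

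At the other extreme, 18 peaks of the list had an input level that reached 3 times the floor, and 5 of them lay side by side on chromosome 13, at 85.2% of the span. The other 13 lay on 7 chromosomes, 6 of them on chromosome 19, so such peaks were not particular to chromosome 13. The summits of the 5 ran from 38836675 to 38850279, within 13.6 kb, with no other peak between them. The input levels were between 11.5 and 15.4 fragments, against a median of 3.29 on the chromosome. Fragment numbers were 45, 56, 44, 58 and 68, well above the chromosome's median of 23. Folds were 3.69, 4.49, 3.25, 3.61 and 5.44, of which the first 4 were below the median of the list and the last equalled it to 3 digits. Both ChIP and input were thus high at this place, and the part of input in these peaks was not tested. The genes at these and the other positions were not analysed here.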

How the data were processed

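Per the labels' protocols, seeds were crosslinked in 1% formaldehyde, chromatin was sonicated to 100 to 500 bp, 10 µg of antibody was used and libraries had 15 PCR cycles. The design text speaks of WOX9-like and a pair of replicates, where title and labels say AGL62-like. The submitters' processing notes name Bowtie (0.12.7), SAMtools (0.1.18) and the peak caller MACS2. Settings, library depth and genome build were not given in the sources used here.

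A headerless narrowPeak list, called on the 1 ChIP library, was deposited by the authors. It gives each peak's deposited fold (a ratio of ChIP to background), −log10 p-value and −log10 q-value (smallest 2.03), and a score equal to 10 times the −log10 q, which was not used. Summit fragments and input levels were recovered as the whole number that satisfies both fold and p-value, with 1 added to both terms of the fold, as MACS2 is known to do. A whole number missed the p-value by 8.93e-05 or less (−log10) in 100% of peaks, and the search was tested on simulated data. The simulated data were made with the same formula, so they cannot check the formula itself. Their input levels stayed below those of the high-input peaks of chromosome 13. Starts count from 1. The 96 peaks on 23 scaffolds entered only the list's totals.

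Named items are the 10 peaks of highest fold, the 5 of the first 25% and the first peak, the 3 widest, the 5 fullest and all empty windows, the 5 longest empty stretches and the 3 fullest windows of 100 kb. The peaks from 3 to 9 Mb, those of high input, the groups of 4, the stretch borders, the sparsest 10 Mb (moved in steps of 0.1 Mb), the runs of windows and the outer 10 Mb were chosen after their values were seen. The chromosome and its measures were chosen with earlier results of these data known. Alternatives changed the peaks used, the windows and the distances. The gene table at hand was not shown to be of the list's build and was not used. Computations ran in Python 3.11.15 with scipy 1.17.1, numpy 2.4.6 and pandas 2.3.3, and plots were drawn with matplotlib 3.10.9.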

Additional observations from a re-analysis of the deposited data

How the results depend on the processing

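Chromosome 13 kept the most peaks, the highest density and the lowest share of summits at its start of the 20 chromosomes under each alternative run for these. Stricter lists held fewer peaks by construction. With a −log10 q of 10 or more there were 630 peaks (13.8 per Mb, 6 empty windows, longest stretch 7.20 Mb, median width 483 bp, median fold 7.06, 20.5% with a neighbour within 2 kb). With fold at or above the list's median there were 647 (14.2 per Mb, 7 empty windows, longest stretch 8.05 Mb, width 479 bp, fold 7.02, 20.1% with a neighbour). In both lists the longest stretch was second of the 20 chromosomes, with 9 longer ones in the full list. The neighbour share was in both the highest of the 20 chromosomes, against seventh in the full list, and the cause was not tested. A −log10 q of 5 or more gave 25.8 per Mb and a fold of 5.66. Merging summits within 2 kb gave 23.3 per Mb, width 433 bp and fold 5.61, and leaves no neighbour share. The first 15% and 35% of the span held 1.56% and 7.96% of the summits. Empty windows numbered 11 at 0.5 Mb and 1 at 2 Mb. Neighbours within 1 kb and 5 kb were found for 13.3% and 52.8% of summits. Runs of windows with 20 or more summits reached 15. The other 26 of 52 alternative values stayed within the counting interval, or within 1.5 times, of the reported value. Alternatives on the sparsest stretch and on runs of windows were chosen after seeing the data. No paired analysis was possible because there is a single library per group. In the sparse start 38 peaks rest on a median of 21 fragments, against 23 in the middle and 24 in the last 25%.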
